A study of Mus musculus with 6 samples.

Results

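The genes encoding the proteins of the cytosolic ribosome were followed in FL cells of Pogz-/- and Pogz+/+ mouse embryos. A gene was included when a probe set was annotated to it alone and its symbol began with Rpl or Rps and a number or was Rplp0, Rplp1, Rplp2 or Rpsa. The testis paralog Rpl39l, the Rps6k kinases and symbols marked as pseudogenes were left out. Of 18193 genes measured, 49 met this rule, 25 with a large subunit symbol and 24 with a small subunit symbol. They hold 22 and 21 ribosomal proteins proper and 6 relatives that the symbols take in. The gene table lists 88 protein-coding symbols of this form, of which 48 were measured, and 31 symbols were named only by probe sets that also name another gene and so were not measured. Where several probe sets name a gene, the one brightest on average over the 6 arrays stands for it.

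The ribosome is built of a small subunit, which decodes the mRNA, and a large subunit, which forms peptide bonds, and each ribosome holds a single copy of almost every ribosomal protein. Their mRNAs are among the most abundant of a growing cell, and many begin with a run of pyrimidines, the terminal oligopyrimidine or TOP motif, through which the mTOR pathway and the RNA-binding protein LARP1 set their translation. Red cell precursors are known to be sensitive to ribosome shortage: heterozygous mutations in ribosomal protein genes cause Diamond-Blackfan anemia in humans.

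The 3 Pogz-/- and 3 Pogz+/+ samples were FL of embryos at E14.5 on a C57BL/6 background, passed through a strainer as single cells, 1 array for each liver. Mice with a floxed allele were crossed to a deleter line that expresses Cre under the beta-actin promoter. After recombination the allele lacks the exons of the CENPB and DDE domains. Heterozygous Pogz+/- mice made this way were intercrossed to give Pogz-/- embryos, so all cells of the embryo carry the deletion. RNA of unsorted cells was measured, so fewer cells of a type and less RNA per cell cannot be told apart. The brightest Pogz probe set had intensities of 572, 596 and 644 in Pogz-/-, against 578, 523 and 495 in Pogz+/+. The sources used here do not say whether it lies in the deleted exons, so it does not check the genotype labels. Pogz+/+ replicate 1 stood apart: it correlated with the other arrays at 0.794 to 0.810, against 0.884 to 0.906 among the others. Its actin probe sets gave a 3' to 5' ratio of 52.3, against 3.72 to 4.10 in Pogz-/- and 5.50 and 6.63 in the other Pogz+/+ arrays. Results are therefore given over 6 arrays and without that array. No value of the files flags saturated spots. Per array, 20, 22 and 23 members in Pogz-/-, and 1, 13 and 15 in Pogz+/+, lay within 1 log2 unit of the highest signal on the array, controls included. Of other genes 18, 20 and 21, and 1, 12 and 16, lay as near. The highest signals were 15.05, 14.88 and 14.73 in Pogz-/-, against 17.38, 15.54 and 15.35 in Pogz+/+, where each was a control for the phage transcript cre.

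The start sites are shown for 8 members because the TOP motif begins at the first base of the mRNA. Each line gives the 10 bases before the annotated start and 20 bases from it, 5' to 3' on the strand of the gene, from RefSeq windows on GRCm38.p6, with the unbroken run of C and T from the start in capitals.
Rpl38, chr11:114668570-114668599, plus strand: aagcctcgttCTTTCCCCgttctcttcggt
Rpl35, chr2:39005112-39005141, minus strand: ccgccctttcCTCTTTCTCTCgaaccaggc
Rpl27a, chr7:109519185-109519214, plus strand: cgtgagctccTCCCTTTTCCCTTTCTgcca
Rps18, chr17:33955646-33955675, minus strand: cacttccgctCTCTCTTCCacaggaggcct
Rps10, chr17:27635225-27635254, minus strand: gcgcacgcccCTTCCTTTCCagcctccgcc
Rps28, chr17:33824543-33824572, minus strand: cgcgtgcggtCTCgcgagagcgaaagtgag
Rplp2, chr7:141447641-141447670, plus strand: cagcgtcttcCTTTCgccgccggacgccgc
Rps6, chr4:86857348-86857377, minus strand: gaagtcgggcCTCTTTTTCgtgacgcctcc
The first 6 of these genes fell in Pogz-/- without Pogz+/+ replicate 1 and the last 2 did not pass that test. A start window was found for 43 of the 49 members. Searched on the strand of the gene only, a C at the annotated start followed by at least 4 pyrimidines stood at 8 of the 38 ribosomal proteins proper with a window, or 21.1%, against 3.01% of 27025 genes. It stood at 4 of the 12 members with a window that fell, and at 4 of the 26 proper members with a window that did not. The 8 start sites shown are examples and hold it more often than these shares. Rpl41, Rps26 and Rpsa fell with neither C nor T at the first base and are not shown. Anywhere from 10 bases before to 15 after the start, such a run stood at 60.5% of the proper members and at 34.4% of all genes. A match describes the annotated sequence and does not show where transcription began in FL cells.

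No ribosomal protein gene passed the test when all 6 arrays were used, and the medians of both subunits lay near that of all genes. As deposited, the median log2 fold change was -0.21 over the 25 large subunit genes and -0.26 over the 24 small subunit genes, beside -0.17 over all genes. The last takes in 9791 other genes with a mean log2 signal under 6, whose median was -0.52. At a signal of 14 or above the median was -0.47 in members and -0.77 in other genes. At 13 to 14 it was -0.0013 in members and -0.48 in other genes. The sign depended on the scaling: after quantile normalization the medians of both subunits were 0.18. In limma's plain test over 6 arrays 0 members had an adjusted p under 0.05, where 0% of all genes passed in either direction. At an unadjusted p under 0.05, 1 member was higher and 0 were lower in that test, where 2389 of 18193 genes passed in either direction. Limma with trend and robust called 0 members after adjustment, where 0.022% of all genes were lower and 0.0989% higher. At an unadjusted p under 0.05 this fit had 21 members lower and 1 higher, where 3222 of 18193 genes passed in either direction. The methods' t-test called 0 after adjustment. Before it, 4 members were lower, where 8.45% of all genes were, and 1 was higher, with 2412 of 18193 genes passing in either direction. In 21 members all Pogz-/- arrays lay below all Pogz+/+ arrays, as in 16.3% of all genes, and in 1 member all lay above, as in 10.8% of all genes. Small subunit genes made up 12 of the 21.

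Without Pogz+/+ replicate 1, in limma with trend and robust, 15 of the 49 members fell in Pogz-/-, where 2.07% of all genes fell, and 1 rose, where 2.41% rose. Of the large subunit genes 5 of 25 fell, and of the small subunit genes 10 of 24. Median log2 fold changes were -0.18 and -0.19, beside -0.10 over all genes. Only Rpl27a fell by over 1.5-fold. Log2 fold changes were negative in 37 of the 49 members and in 10475 of 18193 genes. At a mean log2 signal of 14 or above they were negative in all 22 members and all 22 other genes. At 13 to 14 they were negative in 9 of 13 members and 65 of 73 other genes. Members that did not pass the test ran from -1.01 in Rpl39 to 1.82 in Rps16. Rps16 was read by a dim probe set with 3.49, 2.09 and 4.52 in Pogz-/-, against 4.59, 2.06 and 1.03 in Pogz+/+ (limma adjusted p = 0.412). The count of fallen members depended on the arrays used: 20 fell without Pogz-/- replicate 1, 9 without Pogz-/- replicate 2 and 2 without Pogz-/- replicate 3. It was 0 without Pogz+/+ replicate 2 or replicate 3, where 1 Pogz+/+ array was left, assumed to vary like the Pogz-/- arrays, so these zeros say nothing about stability. After quantile normalization 1 member was lower and 5 were higher, where 1.66% and 2.07% of all genes were. Limma without trend and robust called 0 members on these arrays. At an unadjusted p under 0.05 it had 6 lower and 1 higher, where 2385 of 18193 genes passed in either direction. The plot of members by array shows both subunits.

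**Figure D1:**
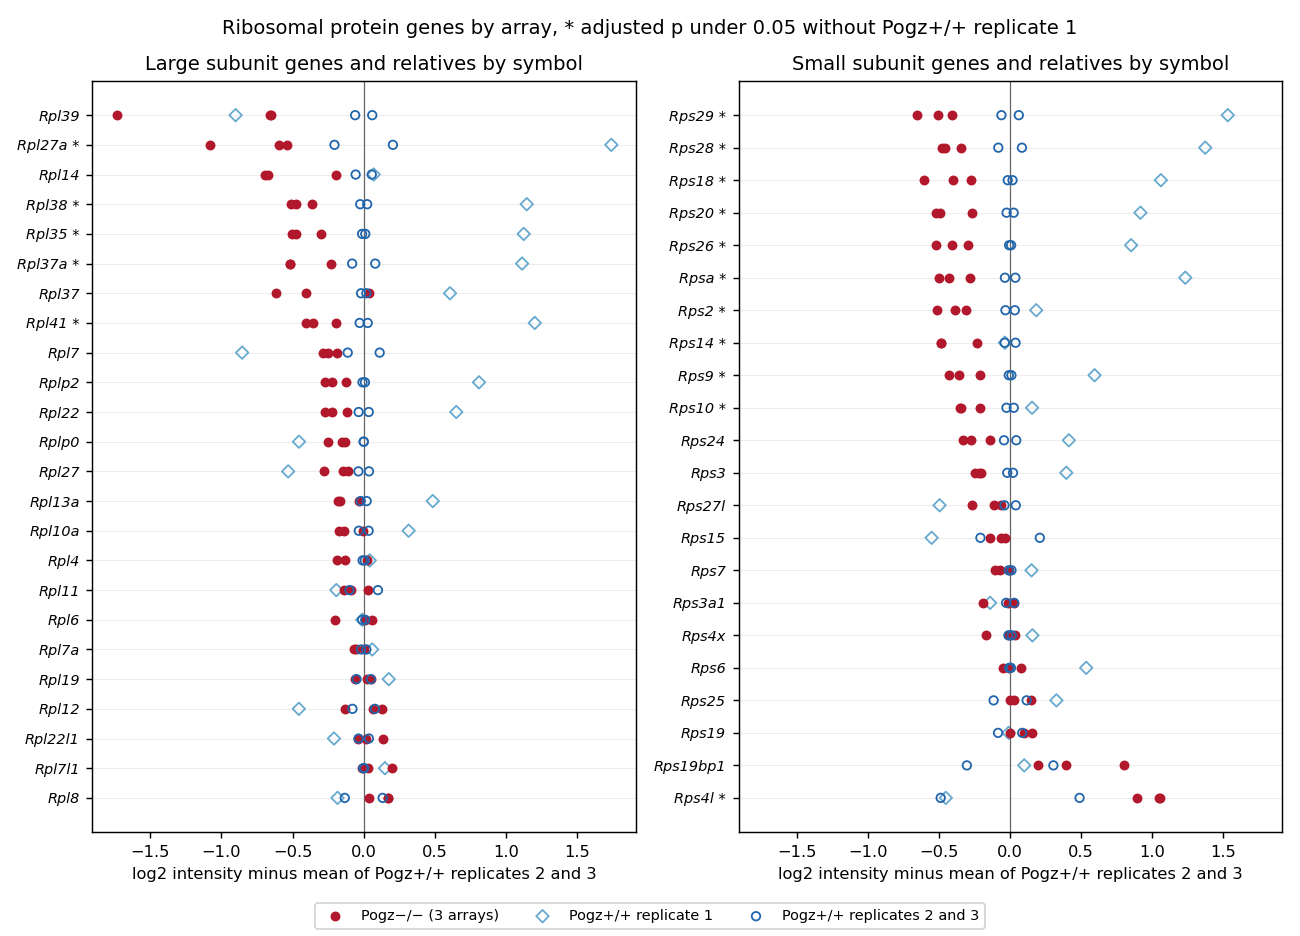
Log2 intensity of 46 members on each array, less the mean of Pogz+/+ replicates 2 and 3 (x axis), for large subunit symbols (left) and small subunit symbols (right), ordered by log2 fold change. Red points are the 3 Pogz-/- arrays, blue circles Pogz+/+ replicates 2 and 3, diamonds Pogz+/+ replicate 1, and an asterisk marks the 16 members called without it. The diamonds lie far to the right in most of the genes that fell. The 3 members with a mean under 6.5 are not drawn.

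Of the large subunit, Rpl38, a small protein next to the exit of the peptide tunnel, was measured at log2 signals of 14.67, 14.53 and 14.57 in Pogz-/-, against 16.19, 15.06 and 15.01 in Pogz+/+. All Pogz-/- arrays lay below all Pogz+/+ arrays, and Pogz+/+ replicate 1 was far above the other 2. Its log2 fold change was -0.45 ± 0.06 (SE) without that array (limma, adjusted p = 0.00307) and -0.83 ± 0.37 with it (adjusted p = 0.392), and after quantile normalization it was 0.09 and 0.15. Rpl35, another protein of the tunnel exit, had 14.45, 14.25 and 14.28 in Pogz-/-, against 15.88, 14.76 and 14.74 in Pogz+/+, with the same separation of the arrays (log2 fold change -0.43 ± 0.07 without replicate 1, limma adjusted p = 0.00692). Rpl37a, a zinc-binding protein of the large subunit, had 14.47, 14.18 and 14.18 in Pogz-/-, against 15.81, 14.78 and 14.61 in Pogz+/+ (-0.42 ± 0.09, limma adjusted p = 0.0237). Its Pogz-/- arrays again lay below all others, with replicate 1 the highest of them.

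Rpl27a showed the largest fall. It was measured at 9.63, 9.57 and 9.08 in Pogz-/-, against 11.91, 10.37 and 9.96 in Pogz+/+ (log2 fold change -0.74 ± 0.17 without Pogz+/+ replicate 1, limma adjusted p = 0.034). The genotypes did not overlap, and the Pogz+/+ arrays spanned more than 1 log2 unit. Rpl41, the smallest ribosomal protein, also fell (-0.32 ± 0.07, limma adjusted p = 0.0276). The other 20 large subunit genes did not pass the test. They included the tunnel exit protein Rpl39, encoded on the X chromosome, with 8.04, 8.03 and 6.96 in Pogz-/-, against 7.79, 8.75 and 8.63 in Pogz+/+. Its log2 fold change was the most negative of all members, -1.01 ± 0.28, at an adjusted p of 0.0667 in limma without replicate 1. With that replicate the genotypes overlapped. Of the 5 tunnel exit proteins measured, 2 fell, where 2.07% of all genes fell, and after quantile normalization none were lower.

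Of the small subunit, Rps29, a zinc-binding protein in the head of the subunit, was the highest of all non-control probe sets on each of the 6 arrays. It was measured at 14.98, 14.88 and 14.73 in Pogz-/-, against 16.92, 15.45 and 15.33 in Pogz+/+. The Pogz-/- arrays lay below all Pogz+/+ arrays, and the log2 fold change was -0.52 ± 0.07 without Pogz+/+ replicate 1 (limma, adjusted p = 0.00357) and -1.03 ± 0.47 over 6 arrays (adjusted p = 0.396). Rps28, which lies near the mRNA exit, had 14.54, 14.44 and 14.41 in Pogz-/-, against 16.26, 14.97 and 14.81 in Pogz+/+ (-0.43 ± 0.07 without replicate 1, limma adjusted p = 0.00639). Rps28 thus ordered the arrays as Rps29 did.

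All 4 measured proteins of the mRNA exit and platform fell as deposited: Rps28, Rps26, Rpsa and Rps14. Of all genes 2.07% fell, and of the 22 genes outside the members with a mean signal of 14 or above 17 fell. After quantile normalization none of the 4 were called, with a median of -0.03. Rps26 had 13.95, 13.84 and 13.73 in Pogz-/-, against 15.10, 14.25 and 14.24 in Pogz+/+ (log2 fold change -0.41 ± 0.07, limma adjusted p = 0.0109). Rpsa, also known as a laminin receptor precursor, had 14.45, 14.30 and 14.23 in Pogz-/-, against 15.96, 14.77 and 14.70 in Pogz+/+ (-0.41 ± 0.07, limma adjusted p = 0.00951). Rps14 fell by as much without the wide Pogz+/+ spread: it had 14.48, 14.23 and 14.23 in Pogz-/-, against 14.68, 14.75 and 14.68 in Pogz+/+ (-0.40 ± 0.08, limma adjusted p = 0.0175). Rps14 was the 1 fallen member in which Pogz+/+ replicate 1 was not the highest array.

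Of the mRNA entry proteins, 1 of 3 fell, where 2.07% of all genes did, and after quantile normalization 0 were lower and 1 higher. Rps2, a protein of this site, had 14.29, 14.22 and 14.09 in Pogz-/-, against 14.79, 14.64 and 14.57 in Pogz+/+ (log2 fold change -0.40 ± 0.07, limma adjusted p = 0.00866). Its neighbour Rps3 had a log2 fold change of -0.22 at an adjusted p of 0.072. Fau, whose product is cleaved to the ribosomal protein eS30 and which the symbol rule leaves out, had 13.52, 13.44 and 13.52 in Pogz-/-, against 13.88, 13.43 and 13.46 in Pogz+/+, with overlapping arrays (0.05 ± 0.06, limma adjusted p = 0.751). Rps20, a protein of the head of the subunit, had 14.56, 14.33 and 14.30 in Pogz-/-, against 15.74, 14.85 and 14.80 in Pogz+/+ (-0.43 ± 0.08, limma adjusted p = 0.0118). Rps18, which touches the large subunit across a bridge, had 14.32, 13.99 and 14.20 in Pogz-/-, against 15.66, 14.61 and 14.58 in Pogz+/+ (-0.43 ± 0.09, limma adjusted p = 0.0184). Both kept the genotypes apart on all arrays. Rps9 and Rps10 fell by 0.33 and 0.30 on the log2 scale.

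The 3 measured proteins of the stalk, which recruits the elongation factors, did not pass the test. Rplp0, its base, had 14.11, 14.09 and 13.99 in Pogz-/-, against 13.79, 14.24 and 14.24 in Pogz+/+. Pogz+/+ replicate 1 was the lowest of the 6 here, and the log2 fold change was -0.03 over 6 arrays and -0.18 without it. Rplp2 gave -0.21 (limma without replicate 1, adjusted p = 0.1) and Rpl12 gave 0.02 (adjusted p = 0.97). Rpl11, which with Rpl5 and the small ribosomal RNA of the large subunit can bind the p53 regulator MDM2, had 13.18, 13.06 and 13.01 in Pogz-/-, against 12.96, 13.05 and 13.25 in Pogz+/+. These arrays overlapped fully (-0.06 ± 0.08, limma adjusted p = 0.732). Rps4x, the second X-linked member measured, gave -0.05 at an adjusted p of 0.777.

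Of the genes mutated in Diamond-Blackfan anemia in humans, 11 of 19 were measured, 5 of them fell and none rose, where 2.07% of all genes fell. All 5 had a mean log2 signal of 14 or above, where 17 of the 22 genes outside the members fell. After quantile normalization none of the 11 were lower and 2 were higher, Rps19 and Rps7. The 4 with the largest moderated t were Rps29, Rps28, Rpl35 and Rps26, described above, and Rps10 was the other that fell. Rps19, the gene most often mutated in that disease, had 13.49, 13.34 and 13.44 in Pogz-/-, against 13.33, 13.26 and 13.43 in Pogz+/+. The arrays overlapped, and the log2 fold change was 0.08 ± 0.08 without Pogz+/+ replicate 1 (limma, adjusted p = 0.61).

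The 6 relatives differed from the ribosomal proteins proper in kind. Rps4l is annotated in RefSeq as a transcribed pseudogene on chromosome 6 and is kept by the rule because its symbol does not mark it as one. It was the 1 member that rose, with 9.23, 9.23 and 9.07 in Pogz-/-, against 7.73, 8.67 and 7.69 in Pogz+/+. All Pogz-/- arrays lay above all Pogz+/+ arrays, of which replicate 2 was the highest. The log2 fold change was 1.00 ± 0.22 without Pogz+/+ replicate 1 (limma, adjusted p = 0.0292) and 1.15 ± 0.32 over 6 arrays (adjusted p = 0.33). The call was lost when any of the Pogz-/- arrays was also left out. It was lost too without Pogz+/+ replicate 3, where 1 Pogz+/+ array was left and the spread came from the Pogz-/- arrays alone. Rps19bp1, which binds the Rps19 protein and is not itself ribosomal, had 8.76, 8.35 and 8.16 in Pogz-/-, against 8.06, 7.65 and 8.26 in Pogz+/+ (log2 fold change 0.46, limma adjusted p = 0.279). The paralogs Rpl22l1, Rpl7l1 and Rps27l gave 0.04, 0.07 and -0.15 without replicate 1, at adjusted p from 0.355 to 0.847. Rpl3l, the paralog of striated muscle, was dim and ran from -0.24 to 3.33 in Pogz-/- and from 2.04 to 6.63 in Pogz+/+.

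The members that fell were among the brightest probe sets. At a mean log2 signal of 14 or above stood 22 members, of which 13 fell, with a median log2 fold change of -0.36. Of the 22 other genes that bright, 17 fell, with a median of -0.43. Between 13 and 14 stood 13 members, of which 1 fell, with a median of -0.06, and 73 other genes, of which 42 fell, with a median of -0.36. Across the 36 members above a signal of 12, the difference without Pogz+/+ replicate 1 went with signal at r = -0.74, a description across genes that share arrays. Of the members below 12, Rpl27a alone fell and Rps4l alone rose.

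**Figure D2:**
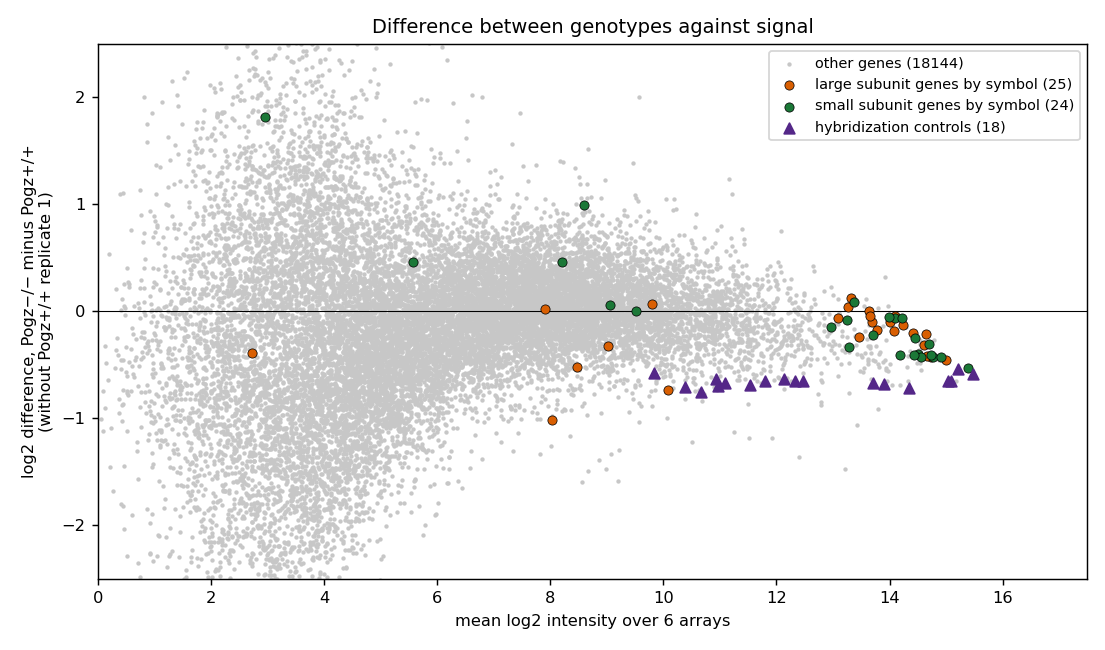
Log2 difference between genotypes without Pogz+/+ replicate 1 (y axis) against mean log2 intensity over 6 arrays (x axis) for 18144 other genes (grey), large subunit symbols (orange), small subunit symbols (green) and 18 hybridization control probe sets (triangles). Members brighter than 14 fall away from 0 toward the triangles, which lie near -0.65 at all signals, and 291 genes lie outside the axes.

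The bacterial and phage transcripts bioB, bioC, bioD and cre, which are added to the hybridization mix and owe nothing to the liver, were also lower on the Pogz-/- arrays. The 18 probe sets averaged log2 signals of 12.14, 11.89 and 11.70 on Pogz-/- arrays, against 14.77, 12.69 and 12.44 on Pogz+/+ arrays. Cre, the brightest of them, averaged 14.74, 14.58 and 14.40 on Pogz-/- arrays, against 17.13, 15.28 and 15.07 on Pogz+/+ arrays. The 22 bright members averaged 14.37, 14.23 and 14.20 in Pogz-/-, against 15.19, 14.59 and 14.54 in Pogz+/+. The 6 arrays thus stood in the same order in all 3. Without Pogz+/+ replicate 1 the difference was -0.60 for cre and -0.30 for the bright members. Pogz-/- replicate 1 was the highest of the Pogz-/- arrays in all 15 members that fell and in 25 of the 34 that did not. Other genes at a mean signal of 8 to 10 had a median log2 fold change of 0.05. Each array has the same trimmed mean, so this median cannot show whether genes shared the difference in the controls. The part of the control difference in the falls of the members was not tested beyond the other scalings given below.

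**Figure D3:**
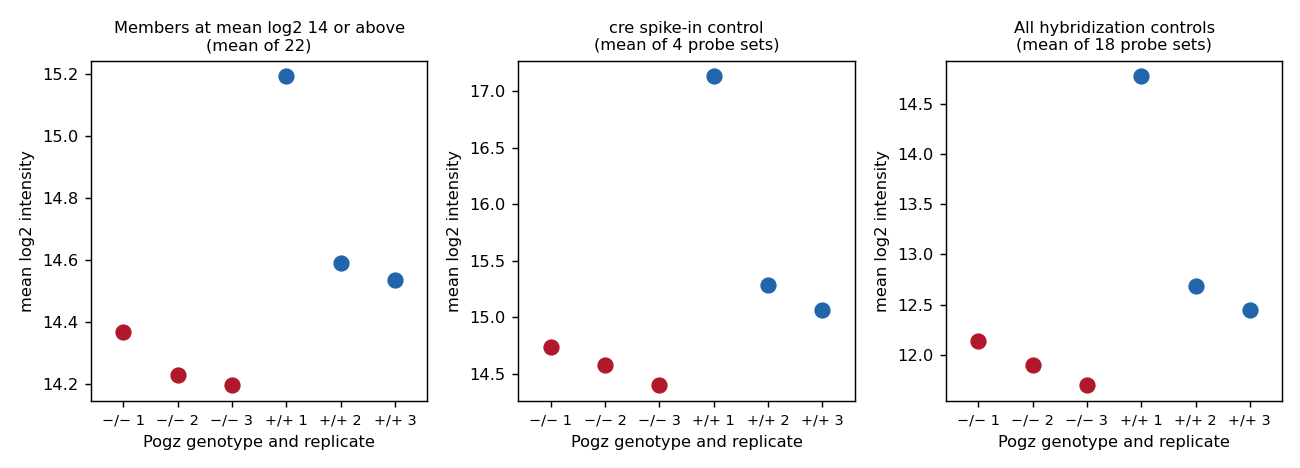
Mean log2 intensity on each array (y axis) of the 22 members at a mean of 14 or above (left), the cre control (middle) and all 18 hybridization control probe sets (right), for 3 Pogz-/- arrays (red) and 3 Pogz+/+ arrays (blue). In each panel the order is Pogz+/+ replicates 1, 2 and 3 and then Pogz-/- replicates 1, 2 and 3.

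Most of the falls were lost when the arrays were scaled another way. After quantile normalization, which gives each array the same distribution, 1 of the 15 fallen members was still called lower, Rpl27a (log2 fold change -0.79, limma without Pogz+/+ replicate 1, adjusted p = 0.0362), where 1.66% of all genes fell. Rps29 was 0 by construction, since it ranked first on each array. Probe sets of members made up 22 to 31 of the 100 brightest on each array. This scaling sets values by rank, so a fall shared by the brightest probe sets could not be seen after it. In the same fit 5 members were called higher, where 2.07% of all genes were: Rps4l (0.94, adjusted p = 0.0474), Rps19 (0.30), Rpl8 (0.34), Rps7 (0.23) and Rpl22l1 (0.27). After centring each array on its median, 0 members were lower and 6 were higher, where 0.55% of all genes were lower and 10.1% higher. The 6 were Rps4l, Rps19, Rps19bp1, Rpl8, Rpl19 and Rpl22l1. The median over all genes then moved to 0.18, and those of the large and small subunit genes were both 0.09. Scaling to the hybridization controls put the median of all genes at 0.56, and 0 members were lower and 19 higher, where 0.17% and 23.8% of all genes were. Rps4l was higher in Pogz-/- at an adjusted p under 0.05 in all 4 of these scalings.

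**Figure D4:**
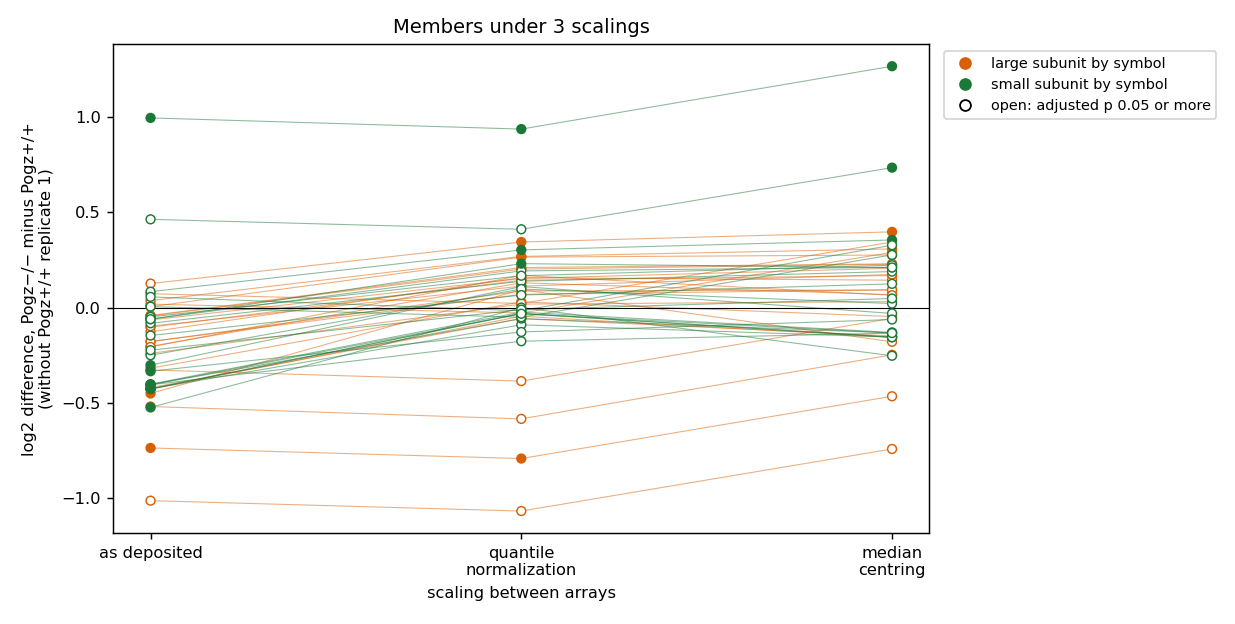
Log2 difference between genotypes without Pogz+/+ replicate 1 (y axis) of 46 members as deposited, after quantile normalization and after median centring (x axis), 1 line per gene, large subunit symbols in orange and small subunit symbols in green. Filled points have an adjusted p under 0.05. The filled points below 0 are gone after median centring, and Rpl27a alone is left after quantile normalization.

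Different probe sets of a gene did not always agree. Of the 24 members with several probe sets, 8 had all of them of 1 sign. Over the 105 probe sets of members, 24 were called lower and 6 higher in the fit over probe sets without Pogz+/+ replicate 1, where 1.22% of all probe sets were lower and 1.45% higher. Rps28 and Rps29 had 3 probe sets each and all were called lower. Rpl27a, called lower among genes, missed the threshold there (adjusted p = 0.0505). Rps9 had 1 called in each direction, at -0.33 and at 0.47. A second probe set of Rps7 was called higher, with 13.96, 13.86 and 13.95 in Pogz-/-, against 11.31, 13.41 and 13.47 in Pogz+/+ (log2 fold change 0.48). Pogz+/+ replicate 1 was the lowest array there, where it was the highest in 14 of the 15 members that fell. The widest ranges of log2 fold change were those of Rpsa (-2.41 to -0.41), Rpl27a (-0.74 to 1.16) and Rps18 (-1.17 to 0.46), whose far values came from dim probe sets. Bright probe sets differed too. Among members that fell, bright sets of Rps18 (-0.14 and -0.17), Rps14 (-0.10), Rpl37a (-0.16) and Rpl41 (-0.12) did not pass the test. Rpl35 had 4 sets called lower and a bright one at -0.04. Bright sets of Rpl13a (0.37), Rpl22 (0.53) and Rpl7 (0.32) were called higher. Ribosomal protein genes have many processed pseudogenes, and 15 members were read by probe sets whose _x suffix marks probes that also match other transcripts. Of these, 10 fell, against 5 of the other 34, where 2.07% of all genes fell. These sets were not matched for signal, and of the 22 genes outside the members with a mean signal of 14 or above 17 fell. After quantile normalization 0 of the 15 were lower, with a median log2 fold change of -0.02, and 1 of the other 34 was.

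Of 17 measured elongation factors and other TOP mRNAs, 1 fell and 1 rose, where 2.07% and 2.41% of all genes did. Their median log2 fold change was -0.04 beside -0.10 over all genes. Tpt1, the translationally controlled tumor protein and one of the most abundant TOP mRNAs, had 14.58, 14.503 and 14.34 in Pogz-/-, against 16.01, 15.01 and 14.85 in Pogz+/+ (-0.46 ± 0.08, limma without Pogz+/+ replicate 1, adjusted p = 0.00896). The initiation factor Eif4b had 11.16, 11.17 and 11.09 in Pogz-/-, against 10.14, 10.72 and 10.69 in Pogz+/+ (0.43 ± 0.09, limma adjusted p = 0.0166). After quantile normalization Tpt1 was at -0.04 (adjusted p = 0.771) and Eif4b at 0.45 (adjusted p = 0.0185), and of the 17 none were lower and 3 higher. The poly(A)-binding protein Pabpc1 had a log2 fold change of -0.27 at an adjusted p of 0.0863.

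Of 22 measured regulators of TOP mRNAs and of ribosome synthesis, 1 rose and none fell, where 2.41% and 2.07% of all genes did. Myc, a driver of ribosome production, had 9.39, 9.12 and 9.05 in Pogz-/-, against 7.15, 8.68 and 8.42 in Pogz+/+, with no overlap (log2 fold change 0.64 ± 0.14, limma adjusted p = 0.0281, and 0.0563 after quantile normalization). Polr1a, the largest subunit of the polymerase that transcribes ribosomal RNA, gave 0.82 at an adjusted p of 0.0705, and the assembly factor Mdn1 gave 0.50 at 0.163. Among the 76 proteins of the mitochondrial ribosome, which is built from a separate set of genes, 14 rose and 2 fell, with a median of 0.18. Of all genes 2.41% rose and 2.07% fell. Mrps16 and Mrps18a had the largest moderated t, with log2 fold changes of 0.82 and 0.85. After quantile normalization 9 of these 76 were higher and 3 lower, where 2.07% and 1.66% of all genes were.

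Markers of the cell types in FL also moved with genotype. Over 8 measured late erythroid markers the summed intensity was 42840 to 47010 in Pogz-/-, against 59910 to 83700 in Pogz+/+. Of the 8, 4 fell, where 2.07% of all genes did, among them Slc4a1, the red cell anion exchanger (log2 fold change -0.69), and Alas2 of heme synthesis (-0.48). After quantile normalization 2 of the 8 were lower, Slc4a1 (-0.42) among them, with Alas2 at -0.29 (limma, adjusted p = 0.0921), and after median centring 1 was lower and 1 higher. Over 9 early progenitor markers the sum was 3469 to 3855 in Pogz-/-, against 2411 to 2950 in Pogz+/+, with Kit (0.91) and Myb (0.45) higher, also after quantile normalization. The median log2 fold change of these 9 was -0.19 and 5 of the 9 were negative, among them Gata2 (-0.43) and Spi1 (-0.45), which did not pass the test. Over 8 hepatoblast markers the sum was 16990 to 27110 in Pogz-/-, against 27570 to 50630 in Pogz+/+. Of the 8, 6 had a negative log2 fold change and 1 fell, the bright Afp (-0.66), while Alb went the other way (0.41) without passing the test. After quantile normalization none of the 8 were lower, with Afp at -0.35 (limma, adjusted p = 0.29). Granulocyte markers rose in 4 of 10, where 2.41% of all genes rose, and 3 of the 10 were higher after quantile normalization. Of 7 T and natural killer cell markers 1 rose, Nkg7, and 1 fell, Zap70. After quantile normalization both were still called, with log2 fold changes of 1.23 for Nkg7 and -1.03 for Zap70. None of the 10 macrophage, 7 B cell, 7 megakaryocyte or 10 endothelial and stromal markers passed the test. Summed intensities did not overlap either for macrophage markers (4187 to 5808 in Pogz-/-, against 5913 to 6787 in Pogz+/+), T and natural killer cell markers (340 to 413, against 437 to 934), B cell markers (241 to 315, against 404 to 620) and endothelial and stromal markers (546 to 592, against 670 to 992). The highest sum of each list but the progenitors was that of Pogz+/+ replicate 1. Sums were taken as deposited only and weigh the brightest markers of a list most. The sum of the T and natural killer cell markers joins genes called in opposite directions, so it does not show a change in those cells. The part of these shifts in the ribosomal protein values was not tested.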

How the data were processed

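The authors deposited linear probe set intensity values from Affymetrix whole-genome mouse arrays. Per the labels, RNA was biotin labelled with a 3' in vitro transcription kit and values came from Affymetrix Expression Console, with version and algorithm not given in the sources used here. Each array has a 2% trimmed mean of 150 and its own median (29.7 to 54.3), so the arrays were not quantile normalized. Log2 was taken with no pseudocount. After 64 controls were left out, 45037 probe sets remained, of which 34945 name 1 gene, 932 several and 9160 none here. They give 18193 genes, and array number limits the precision.

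Genotypes were compared in R 4.3.3 by two-sided tests of limma 3.58.1, with Benjamini-Hochberg adjustment over all genes, plain over 6 arrays, and with trend and robust without Pogz+/+ replicate 1, which leaves 2 Pogz+/+ arrays. Rose and fell mean an adjusted p under 0.05. The members, gene lists, rule and tests were chosen with earlier results of these data known. Replicates are separate livers per the labels. Named genes are the 12 called members of largest change, the 6 largest without overlap in each direction, all relatives, the 4 Diamond-Blackfan anemia genes of largest moderated t, the stalk, Rpl11 and X-linked genes, the 3 of widest probe set range, and the 3 of largest moderated t from each other list. Rps14, Rps9, Rps10, Rps3, Rps19, Rpl8, Rps7, Rpl19, Rpl41, Rps16 and the markers were named after their values were seen. Alternatives were quantile normalization, median centring, the other limma setting, a filter on dim probe sets, a replicate block, leaving out each array, other probe set choices and the methods' t-test, and, chosen after the data were seen, scaling to the hybridization controls and quantile normalization with plain limma. The calculations were tested on simulated data. TOP motifs were searched in RefSeq windows of 250 bases before and 50 after each start.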

Additional observations from a re-analysis of the deposited data

How the results depend on the processing

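The 0 members called over 6 arrays stayed 0 under each alternative run on the 6 arrays, and in plain limma with any array left out. The median log2 fold changes over 6 arrays (-0.21 for large and -0.26 for small subunit genes) were 0.18 and 0.18 after quantile normalization, 0.25 and 0.20 after median centring, -0.11 and -0.020 with the mean of all probe sets of a gene, -0.041 and 0.27 with probe sets designed for 1 transcript, and 1.18 and 1.13 after scaling to the hybridization controls, and the small subunit median was -0.36 without relatives. Leaving out each array gave -0.28 to -0.17 and -0.33 to -0.19. Without Pogz+/+ replicate 1 (-0.18 and -0.19) they were 0.087 and 0.033 after quantile normalization, 0.093 and 0.086 after median centring, -0.10 and -0.0056 with the mean of probe sets, -0.087 and 0.025 with probe sets for 1 transcript, and 0.48 and 0.47 after scaling to the hybridization controls. Leaving out each further array gave -0.20 to -0.17 and -0.23 to -0.15.

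The 15 members lower and 1 higher without that array became 1 and 5 after quantile normalization, 0 and 6 after median centring, 0 and 0 with limma without trend and robust, 0 and 0 with the methods' t-test (before adjustment 16 lower, where 7.36% of all genes were, and 0 higher), 5 and 0 with the mean of probe sets, 2 and 2 with probe sets for 1 transcript, 0 and 19 after scaling to the hybridization controls, and 0 and 0 for quantile normalization with plain limma. The last 2 scalings were chosen after seeing the data. Fewer genes had a probe set for 1 transcript, and the other causes were not tested. Leaving out each array gave 0 to 20 lower and 0 to 1 higher, the 0 lower with 1 Pogz+/+ array left. The replicate numbers did not pair the samples (correlations of deviations 0.004, -0.009 and -0.013), and with the replicate number as a block 26 members were lower and 1 higher, without use of Pogz-/- replicate 1, which has no partner there.

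Among named genes over 6 arrays, the log2 fold change changed sign after quantile normalization for Rpl11 (0.29), Rpl38 (0.15), Rpl7l1 (-0.063), Rplp0 (0.37), Rplp2 (0.26), Rps2 (0.064), Rps20 (0.042) and Rps4x (0.25), after median centring for Rpl11 (0.46), Rplp0 (0.43) and Rps4x (0.36), and with probe sets for 1 transcript for Rps20 (0.45). Without Pogz+/+ replicate 1 it changed sign after quantile normalization for Rpl11 (0.15), Rpl12 (-0.028), Rpl38 (0.094), Rplp0 (0.087), Rplp2 (0.17), Rps27l (0.066) and Rps4x (0.17), after median centring for Rpl11 (0.21), Rplp0 (0.093), Rplp2 (0.065), Rps27l (0.12) and Rps4x (0.22), with the replicate block for Rpl12 (-0.0035), Rpl22l1 (-0.013) and Rpl3l (0.63), with the mean of probe sets for Rpl27a (0.21) and with probe sets for 1 transcript for Rpl35 (0.22). Leaving out each array turned the sign over 6 arrays for Rpl11 (-0.065 to 0.081), Rpl7l1 (-0.040 to 0.073), Rplp0 (-0.18 to 0.049) and Rps27l (-0.15 to 0.12), and without Pogz+/+ replicate 1 for Rpl12 (-0.061 to 0.097), Rpl22l1 (-0.013 to 0.076), Rpl3l (-1.16 to 0.63), Rps4x (-0.090 to 0.012) and Rpl11 (-0.16 to 0.035).

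With 3 livers against 2, differences in dim probe sets such as those of Rps16 and Rpl3l were not measured well enough to be placed.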
